A study of Homo sapiens with 20 samples.

Results

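HUWE1 and 7 genes that lie near it on the short arm of chromosome X were followed in HEK293T cells given small interfering RNA (siRNA) against HUWE1. The 8 genes, HUWE1, HSD17B10, SMC1A, RIBC1, KDM5C, IQSEC2, PHF8 and FAM120C, are 8 of the 45372 gene symbols in each deposited table. They were chosen by their position and by the HUWE1 siRNA against non-targeting fold changes of these same libraries, which were already known. Those fold changes are therefore given as a description, without a p. HEK293T is an established human line, derived from embryonic kidney, that expresses large T antigen of SV40. Polyadenylated RNA was sequenced from 20 libraries in 5 groups of 4, which the series text calls biological replicates. Non-targeting (NT) siRNA and HUWE1 siRNA libraries without a set number, called set 1 here, fill the first table. HUWE1 siRNA libraries of set 2 and set 3, and 4 NT libraries that serve both, fill the second. All groups were given siRNA, and no untreated cells were analysed here. The sources used here give neither the siRNA sequences and doses nor the time after transfection, nor what separates the sets.

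HUWE1 encodes a very large ubiquitin ligase of the HECT class, in which the ubiquitin passes through a cysteine of the ligase itself before it reaches the substrate. A siRNA guides cleavage of a matching transcript, so the level of the targeted transcript reports the knockdown. The neighbours act in different processes. HSD17B10 is a mitochondrial dehydrogenase of isoleucine breakdown that is also a subunit of mitochondrial RNase P, SMC1A is a core subunit of cohesin, KDM5C and PHF8 are histone lysine demethylases, IQSEC2 is an exchange factor for ARF proteins of synapses, RIBC1 is a protein of ciliary microtubules, and FAM120C belongs to a family named for a nuclear receptor coactivator.

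On GRCh38 the 8 genes span 0.992 Mb of chromosome X. In coordinate order they are KDM5C (53191321 to 53225422), IQSEC2 (53225828 to 53321350), SMC1A (53374149 to 53422728), RIBC1 (53422690 to 53431120), HSD17B10 (53431258 to 53434373), HUWE1 (53532096 to 53686729), PHF8 (53936676 to 54048958) and FAM120C (54068324 to 54183281), from GENCODE release 29. RIBC1 is on the plus strand and the other 7 are on the minus strand. HSD17B10 is the nearest of them to HUWE1, with 97.7 kb between the gene bodies, and PHF8 follows on the other side at 249.9 kb. RIBC1 and HSD17B10 end 137 bases apart, tail to tail.

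The HUWE1 gene body also holds a pair of let-7 family microRNAs, small RNAs that repress transcripts through their seed, bases 2 to 8. They are shown because a locus-wide view of HUWE1 includes them. Both lie on the minus strand, as HUWE1 does, between exons of its coding transcripts, hsa-miR-98-5p at chrX:53556299-53556320 and hsa-let-7f-5p at chrX:53557246-53557267 (RefSeq, GRCh38.p14). The seed is in capitals.
hsa-miR-98-5p: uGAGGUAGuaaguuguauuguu
hsa-let-7f-5p: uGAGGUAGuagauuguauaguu
The seeds are identical. The rows of their host loci, MIR98 and MIRLET7F2, are listed at 0 in all 20 libraries, from a poly(A)-selected library type that does not measure mature microRNAs.

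SMC1A and RIBC1 are transcribed in opposite directions from neighbouring starts. Their RefSeq starts are head to head, 145 bases apart, while the GENCODE gene bodies given above overlap by 39 bases. Of the 300 bases in each promoter window, 250 before the start and 50 after it, 244 are shared, read from opposite strands. The SMC1A window is printed because the transcript levels of both genes are compared below. It is chrX:53422679-53422978 on the minus strand (RefSeq, GRCh38.p14), and the capitals mark the bases that the RIBC1 window also holds.
SMC1A: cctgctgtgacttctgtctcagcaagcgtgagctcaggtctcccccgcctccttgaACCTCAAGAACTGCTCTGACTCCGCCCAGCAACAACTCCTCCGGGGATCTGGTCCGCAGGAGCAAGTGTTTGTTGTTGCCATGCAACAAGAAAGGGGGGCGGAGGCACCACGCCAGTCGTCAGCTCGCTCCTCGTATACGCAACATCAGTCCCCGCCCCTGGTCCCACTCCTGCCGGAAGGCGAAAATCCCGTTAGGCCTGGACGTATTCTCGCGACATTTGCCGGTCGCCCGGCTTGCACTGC
The GC box core GGGCGG, searched on both strands, occurs 3 times in the shared bases. It was found in a window of 7 of the 8 genes, all but KDM5C, and in 44.9% of 35097 windows of the same length. Here and in the next sentence, a gene counts if any of its windows holds the bases searched for, while the percentages count single windows. The gene counts and the percentages are therefore not alike, and nothing is read from setting them side by side. CCAAT was found in 4 of the 8 (HUWE1, HSD17B10, PHF8 and FAM120C) and in 34.6% of all windows, and TATAAA in 0 of the 8 and in 11.5% of all windows.

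Levels are in TPM, a unit that divides out transcript length and the total of the library, so genes can be set side by side. In the set 1 controls, HSD17B10 had the highest level of the 8, 230.8 ± 8.19 TPM, above 97.4% of tested genes. HUWE1 (157.2 ± 3.57 TPM) and SMC1A (154.7 ± 3.04 TPM) came next and overlapped, then KDM5C (100.5 ± 0.682 TPM) and PHF8 (37.6 ± 1.09 TPM). FAM120C (4.57 ± 0.217 TPM), IQSEC2 (4.43 ± 0.172 TPM) and RIBC1 (4.36 ± 0.683 TPM) were low and overlapped (SD, n = 4). In the controls of sets 2 and 3, SMC1A (191.8 ± 14.8 TPM) stood above HUWE1 (163.3 ± 3.49 TPM) without overlap, and the rest of the order was the same, from HSD17B10 (248.6 ± 15.3 TPM) down to RIBC1 (3.15 ± 0.317 TPM; SD, n = 4). The tables were normalized separately, so levels were not tested between them. All 8 genes passed the filter on low values in both tables.

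**Figure D1:**
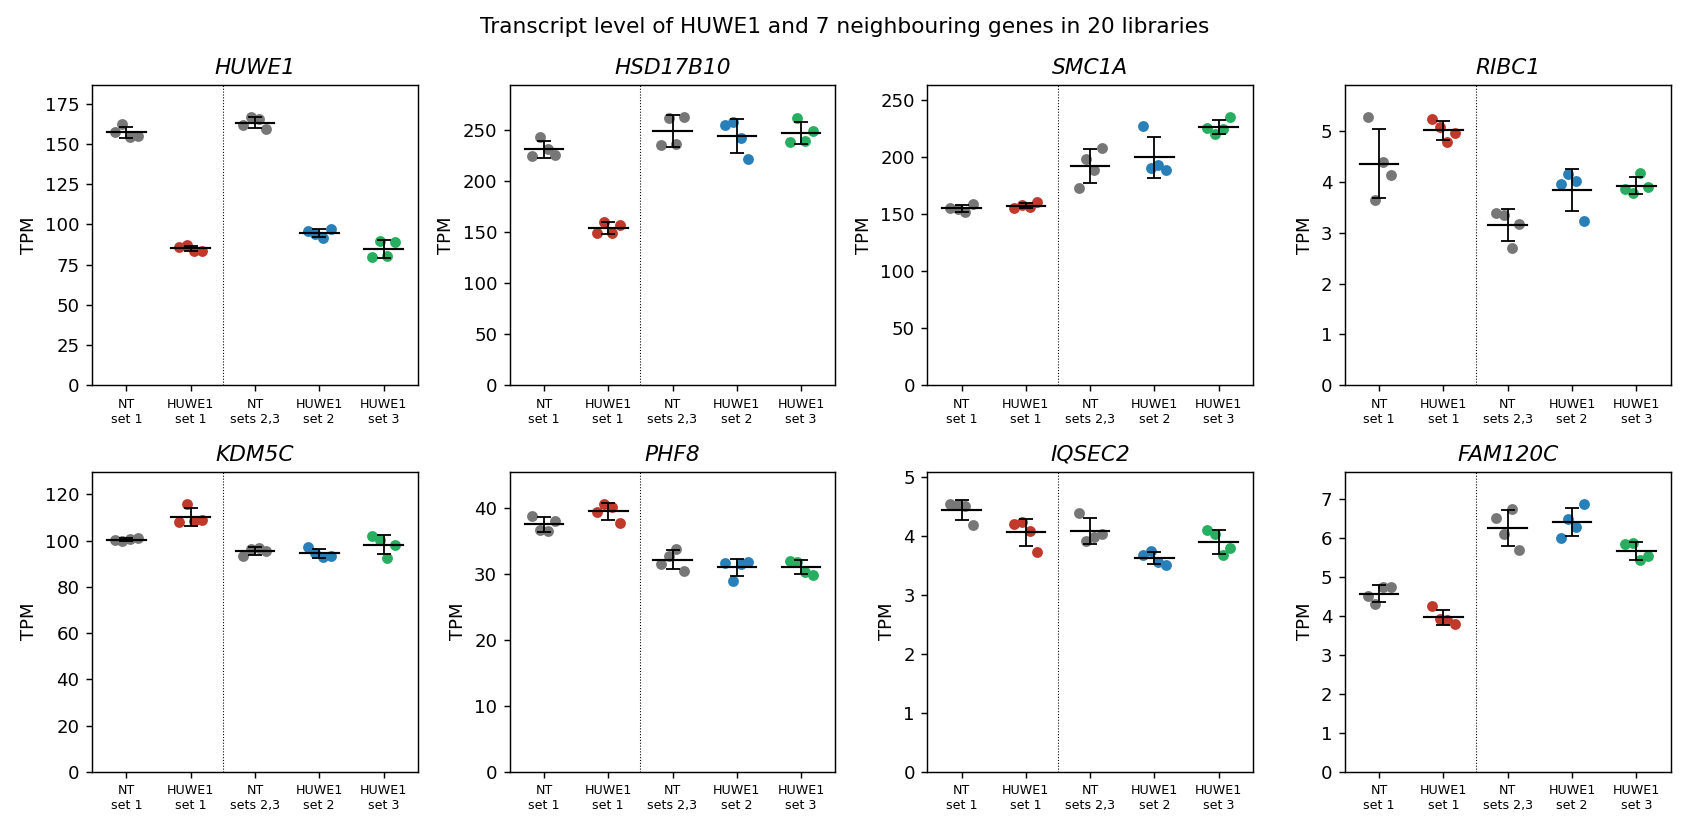
TPM of each of the 8 genes in each of the 20 libraries, one panel per gene, with points for libraries and bars for the group mean ± SD (n = 4). The HUWE1 points of sets 1, 2 and 3 lie below all controls of the same table, and the HSD17B10 points lie below their controls in set 1 (148.8 to 160.0 TPM against 224.6 to 242.5 TPM) and among them in sets 2 and 3.

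Markers of the labelled line were present, with 10 of 10 kidney-epithelial and neuronal genes at 1 TPM or more in every library. Of 17 genes that mark other cells, 9 were under 1 TPM in every library and the fibroblast genes COL1A1 and LUM were at 1 TPM or more in every library. The summed level of the 17 was 25.6 to 28.1 TPM in the controls and 27.7 to 29.3 TPM in the HUWE1 siRNA libraries of set 1, and 12.8 to 18.2 TPM over the second table. Mitochondrially encoded transcripts took 24.3% to 26.2% of TPM in the first table. In the second they took 16.6% to 18.3% in controls, 16.3% to 17.5% in set 2 and 15.5% to 16.4% in set 3. All set 3 libraries lay below all controls in this share. Fits without mitochondrial genes are among the other settings given below. In set 3, 64.2% of the called genes were higher in the main fit and 44.4% without mitochondrial genes. Beyond those fits, the part of these shares in the results was not tested. Every library sums to the same total, so depth is unknown. The controls of sets 2 and 3 were the least alike group (lowest correlation across genes 0.993, against 0.997 in each other group), and NT replicates 1 and 4 were its least alike pair. In bulk samples, fewer cells of a type and less RNA per cell cannot be told apart.

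HUWE1 was the lowest of the 8 genes relative to its control in every set. In set 1 the controls held 157.3, 162.3, 154.5 and 154.8 TPM and the HUWE1 siRNA libraries 86.1, 86.9, 83.5 and 83.6 TPM. In the second table the controls held 161.7, 166.7, 165.5 and 159.1 TPM, against 95.6, 94.3, 91.6 and 96.8 TPM in set 2 and 79.9, 89.7, 80.3 and 89.3 TPM in set 3. No HUWE1 siRNA library reached a control of its table. What was left was 54.1% of the control mean in set 1 (85.0 ± 1.72 TPM), 57.9% in set 2 (94.6 ± 2.26 TPM) and 51.9% in set 3 (84.8 ± 5.42 TPM; SD, n = 4). The log2 fold change, here and throughout on the log2(TPM + 1) scale, was -0.88 ± 0.025 (set 1), -0.78 ± 0.045 (set 2) and -0.94 ± 0.045 (set 3), with SE. Sets 2 and 3 share their controls. Ranked from the most negative fold change, HUWE1 was number 14 of 16057 tested genes in set 1 and number 21 of 15860 in both other sets, so genes with larger decreases existed in every set.

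HSD17B10, the nearest of the 7 neighbours, was lower in set 1 and close to its control in sets 2 and 3. In set 1 the controls held 224.6, 242.5, 230.6 and 225.6 TPM and the HUWE1 siRNA libraries 148.8, 160.0, 149.0 and 156.9 TPM. The groups did not overlap, and the highest HUWE1 siRNA library stood at 69.3% of the control mean. In the second table the controls held 234.7, 261.4, 236.0 and 262.3 TPM, against 254.5, 257.8, 242.3 and 221.2 TPM in set 2 and 237.5, 260.9, 238.9 and 248.2 TPM in set 3. Here all groups overlapped. The level relative to control was 66.6% in set 1, 98.1% in set 2 and 99.1% in set 3. The log2 fold changes were -0.58 ± 0.034, -0.03 ± 0.058 and -0.01 ± 0.058 (SE). Under 17 other settings of the set 1 fit the value lay between -0.60 and -0.55, and under 19 settings each it lay between -0.05 and 0.02 in set 2 and between -0.04 and 0.01 in set 3. Whether set 1 differs from the other sets was not tested, since the genes were chosen by these fold changes. Set 1 also has its own table and controls, so set and table cannot be told apart.

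RIBC1 and SMC1A, which lie next to HSD17B10 on the side away from HUWE1, stood at 115.1% and 101.5% of control in set 1. A short low transcript inside the HSD17B10 gene body on the same strand, AC233728.1, was at 3.03 ± 1.57 TPM in controls and 1.70 ± 1.09 TPM with HUWE1 siRNA (SD, n = 4; limma adjusted p = 0.198). The longest stretch of identical bases between a HUWE1 and an HSD17B10 reference transcript was 12 bases, and 95.1% of 19668 coding genes share a stretch that long with HUWE1. The siRNA sequences were not used here, so no match to them was examined.

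**Figure D2:**
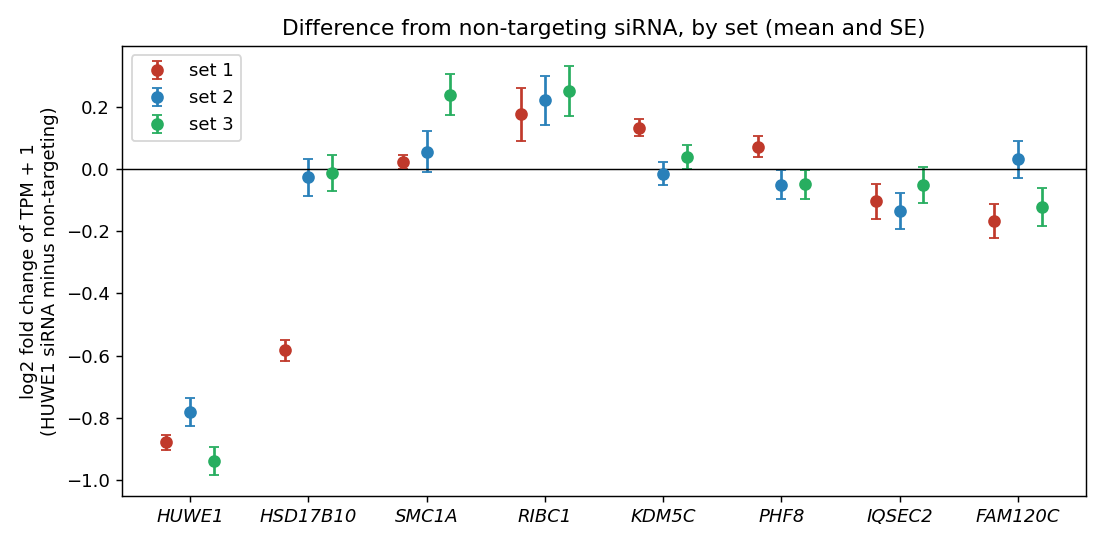
Log2 fold change on the log2(TPM + 1) scale of the 8 genes in HUWE1 siRNA against NT libraries, with SE bars, for sets 1, 2 and 3. HUWE1 lies between -0.94 and -0.78 in all 3 sets, HSD17B10 at -0.58 in set 1 and at -0.03 and -0.01 in sets 2 and 3, and the other 6 genes between -0.17 and 0.25.

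SMC1A, the cohesin subunit, was level in set 1 and above its controls in set 3. In set 1 it held 151.1 to 158.5 TPM in controls and 154.8 to 159.9 TPM with HUWE1 siRNA, with a log2 fold change of 0.02 ± 0.023 (SE). It was called in set 1 under 1 of 17 other settings, quantile normalization (0.07). The controls of the second table held 172.9, 198.1, 188.5 and 207.5 TPM, against 226.4, 190.0, 193.0 and 188.5 TPM in set 2 and 225.5, 219.4, 224.3 and 234.6 TPM in set 3. Set 2 overlapped the controls, with replicate 1 apart from the other 3, and set 3 did not. Set 3 stood at 117.8% of control and its log2 fold change was 0.24 ± 0.066, against 0.06 ± 0.066 in set 2 (SE). NT replicates 1 and 4 were the lowest and the highest control here. The set 3 call was lost under 14 of 19 other settings, at fold changes of 0.19 to 0.25. These include both other scalings, the removal of mitochondrial genes, and every fit that left out 1 of the 8 libraries compared other than NT replicate 4. Without NT replicate 4 it was called at 0.28, and without NT replicates 1 and 4 together at 0.22.

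RIBC1, which starts next to SMC1A on the other strand, had a positive fold change in all 3 sets at a low level. The controls of set 1 held 5.28, 3.65, 4.38 and 4.14 TPM and the HUWE1 siRNA libraries 5.24, 5.08, 4.79 and 4.97 TPM. The second table held 3.38, 3.36, 2.70 and 3.17 TPM in controls, 3.95, 4.15, 4.03 and 3.23 TPM in set 2 and 3.87, 3.78, 4.18 and 3.90 TPM in set 3. In set 1, NT replicate 1 lay above all HUWE1 siRNA libraries, in set 2 replicate 4 lay within the controls, and in set 3 the groups did not overlap. Relative to control RIBC1 stood at 115.1%, 121.8% and 124.6%, with log2 fold changes of 0.17 ± 0.085, 0.22 ± 0.079 and 0.25 ± 0.079 (SE). None of the 3 passed the threshold, and sets 2 and 3 share their controls. It passed without NT replicate 1 in set 1 (0.25) and without NT replicate 4 in set 3 (0.25), and under no other setting.

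Both demethylase genes kept near their controls, with a small difference for KDM5C in set 1. KDM5C, which removes methyl groups from lysine on histone H3, held 100.2, 99.7, 100.7 and 101.3 TPM in the set 1 controls and 107.9, 115.9, 108.6 and 108.7 TPM with HUWE1 siRNA. The groups did not overlap, the HUWE1 siRNA mean stood at 109.8% of control, and the log2 fold change was 0.13 ± 0.027 (SE). In the second table it held 93.2 to 97.0 TPM in controls, 92.9 to 97.3 TPM in set 2 and 92.4 to 102.2 TPM in set 3, which overlap, with log2 fold changes of -0.02 and 0.04. PHF8, a demethylase with a PHD finger, overlapped in every set. Its controls held 36.6 to 38.9 TPM and its HUWE1 siRNA libraries 37.9 to 40.7 TPM in set 1, and in the second table it held 30.5 to 33.9 TPM in controls, 29.1 to 31.8 TPM in set 2 and 30.0 to 32.0 TPM in set 3. Its fold changes were 0.07, -0.05 and -0.05 on the log2 scale.

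The low genes IQSEC2 and FAM120C stood between 86.6% and 102.4% of their controls. IQSEC2, whose product loads GTP onto ARF proteins, held 4.54, 4.51, 4.50 and 4.18 TPM in the set 1 controls and 4.19, 4.22, 4.07 and 3.73 TPM with HUWE1 siRNA. The second table held 4.39, 3.92, 3.98 and 4.02 TPM in controls, 3.67, 3.73, 3.55 and 3.51 TPM in set 2 and 4.09, 4.04, 3.67 and 3.79 TPM in set 3. All 4 libraries of set 2 lay below the controls, and sets 1 and 3 overlapped. The log2 fold changes were -0.10 ± 0.056, -0.14 ± 0.058 and -0.05 ± 0.058 (SE), of which none passed the threshold. FAM120C held 4.51, 4.30, 4.75 and 4.75 TPM in the set 1 controls and 4.25, 3.92, 3.89 and 3.79 TPM with HUWE1 siRNA, which do not overlap. Its log2 fold change was -0.17 ± 0.056 in set 1 (SE), a call that was lost under 11 of 16 other settings, among them leaving out NT replicate 1, 3 or 4 or HUWE1 siRNA replicate 2, 3 or 4, at values of -0.17 to -0.14. In the second table FAM120C overlapped its controls (5.69 to 6.75 TPM) in set 2 (6.01 to 6.88 TPM) and in set 3 (5.43 to 5.88 TPM), with fold changes of 0.03 and -0.12.

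Counted over the 8 genes, limma called 4 in set 1, HUWE1, HSD17B10 and FAM120C lower and KDM5C higher, where it called 30.3% of all tested genes. In set 2 it called 1, HUWE1, against 0.0126% of all genes, and in set 3 it called 2, HUWE1 lower and SMC1A higher, against 11.6%. These contrasts chose the genes, and nothing is read from the counts. The groups did not overlap for 4 of the 8 in set 1, against 31.7% of all genes, for 2 in set 2, HUWE1 and IQSEC2, against 3.69%, and for 3 in set 3, HUWE1, SMC1A and RIBC1, against 17.2%. The median log2 fold change of the 8 was -0.04, -0.02 and -0.03 in sets 1, 2 and 3, beside -0.01, -0.00 and 0.01 over all tested genes.

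Set 3 was then compared with set 2, a contrast that uses only HUWE1 siRNA libraries. It is the difference of the set 3 and set 2 fold changes that were already known when the genes were chosen. It is therefore not independent of that choice, and the p values given for it carry that limit. HUWE1 was lower in set 3 than in set 2 in 4 of 4 libraries, with a log2 difference of -0.16 ± 0.045 (SE), above the threshold once adjusted (limma adjusted p = 0.134). The two-sided exact permutation test of its 4 against 4 TPM values gave p = 0.0286, the smallest that this design allows. FAM120C was also lower in 4 of 4 libraries, at 5.67 ± 0.223 against 6.42 ± 0.367 TPM (SD, n = 4). Its log2 difference was -0.15 ± 0.061 (SE), with a limma adjusted p of 0.255 and an exact permutation p of 0.0286. SMC1A was 0.18 ± 0.066 higher (SE; limma adjusted p = 0.216, exact permutation p = 0.114), and set 2 replicate 1 lay inside the set 3 range. HSD17B10 differed by 0.02 ± 0.058 (SE; limma adjusted p = 0.906). For IQSEC2, KDM5C, RIBC1 and PHF8 the differences were 0.08, 0.05, 0.03 and 0.00, with limma adjusted p of 0.485 to 0.987. Limma called 0 of the 8, against 0.517% of all tested genes. Before adjustment 3 had a limma p under 0.05, HUWE1, SMC1A and FAM120C, against 15.8% of all tested genes. The groups of 2, HUWE1 and FAM120C, did not overlap, against 13.2%. The 8 exact tests were not adjusted over these genes, since the genes were chosen with results known.

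**Figure D3:**
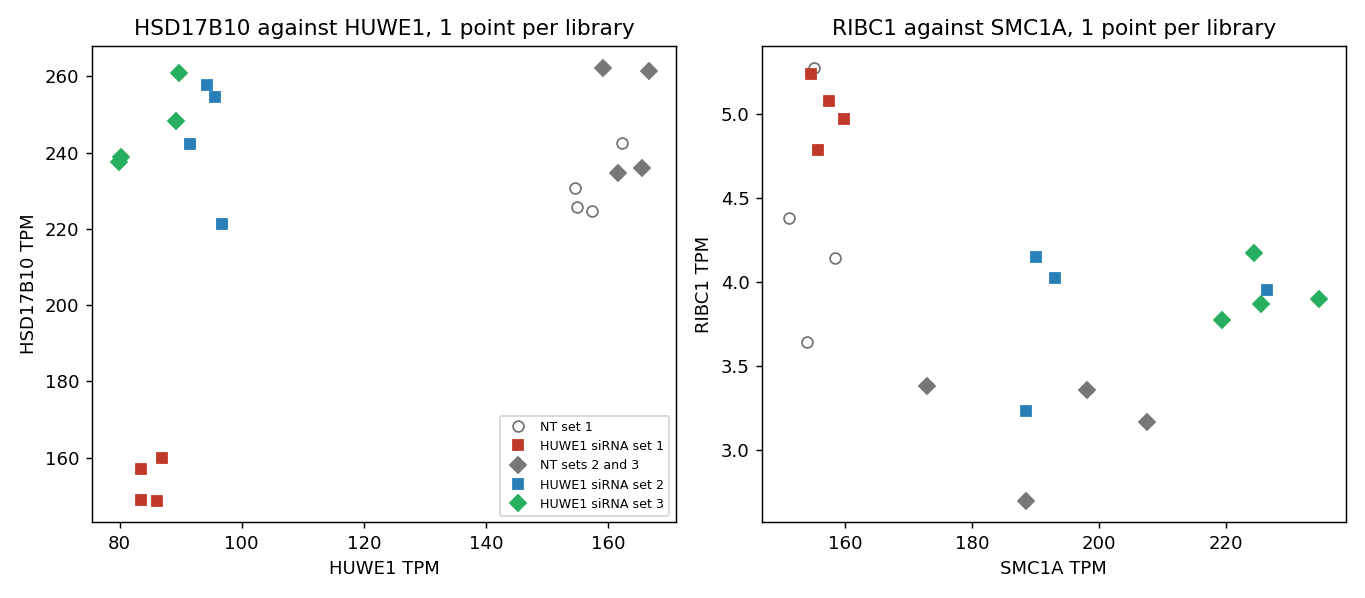
TPM of HUWE1 against HSD17B10 and of SMC1A against RIBC1, one point per library, coloured by group. HUWE1 separates HUWE1 siRNA from NT libraries in both tables, while HSD17B10 separates them in the first table (153.7 against 230.8 TPM on average) and overlaps in the second.

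Fold changes in the surrounding region had both signs in every set. Within 1 Mb of either end of HUWE1 the tables hold 25 further genes, of which 8 are at 0 in every library, 12 were tested in the first table and 9 in the second. In set 1, 4 of 12 were called, near the share over all genes. GNL3L, a nucleolar GTPase gene, held 25.3 ± 0.812 TPM in controls and fell to 22.3 ± 0.493 TPM (SD, n = 4), a log2 fold change of -0.17 (limma adjusted p = 0.00371). TSR2, which helps ribosome assembly, fell by 0.08 on the log2 scale (limma adjusted p = 0.0431), a call lost under 12 of 17 other settings. FAM156B fell by 0.69 (14.3 ± 2.44 to 8.60 ± 1.97 TPM, SD, n = 4; limma adjusted p = 0.00589) and FAM156A rose by 0.12 (limma adjusted p = 0.0403, lost under 8 of 17 settings). FAM156A and FAM156B are near-identical copies, so how reads were split between them is uncertain. In set 2 limma called 0 of 9, against 0.0126% of all tested genes, and 0 had an unadjusted p under 0.05, against 8.83%. In set 3, TSPYL2 held 53.6 ± 2.22 TPM in controls and fell to 47.0 ± 2.25 TPM (SD, n = 4), a log2 fold change of -0.19 (limma adjusted p = 0.0362) whose call was lost under 11 of 19 settings. The median log2 fold change of these region genes was -0.04, -0.03 and -0.14 in sets 1, 2 and 3. Over all tested genes of chromosome X but the 8, with these region genes included, it was -0.02, 0.00 and 0.03. The genes tested beyond PHF8 and FAM120C, WNK3, TSR2, FGD1 and GNL3L, had fold changes of -0.17 to 0.03 in set 1.

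**Figure D4:**
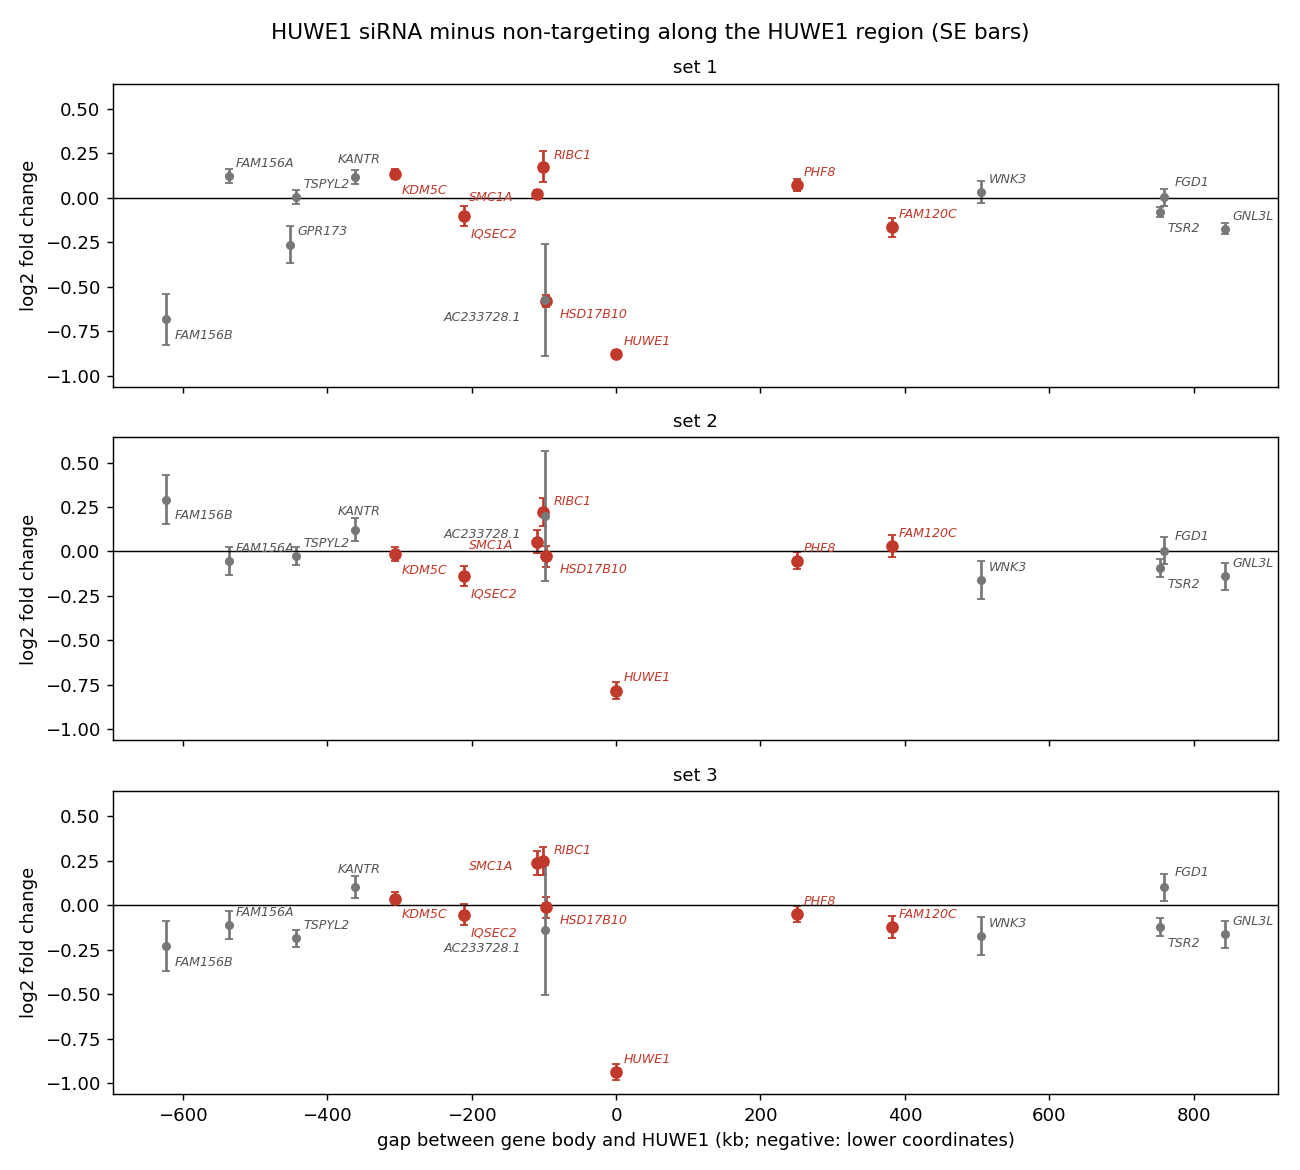
Log2 fold change of tested genes (SE bars) against the gap between their gene body and HUWE1 in kb, for sets 1, 2 and 3, with the 8 genes in red and other genes in grey. HUWE1 at gap 0 is the lowest point in each set, and in set 1 FAM156B (-0.69), HSD17B10 (-0.58) and the low transcript AC233728.1 (-0.57) are the next lowest. SSX2 and SSX2B, low near-identical copies tested in the first table alone, are left out.

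The partners and relatives of the 8 genes were listed by function. These lists were also drawn up with results known, and their counts stand beside calls for 30.3% of all tested genes in set 1 and 11.6% in set 3. Among 15 tested cohesin genes, set 1 had 1 higher and 3 lower, no larger a share than the 30.3% over all genes, with the partner of SMC1A, SMC3, at -0.09 (limma adjusted p = 0.031), CTCF, which stops cohesin on DNA, at -0.12 (0.0151), and the loader subunit MAU2 at 0.13 (0.0306). The SMC3 and MAU2 calls were lost under 9 and 6 of 17 settings. In set 3, 2 of the 15 were higher and 0 lower, beside 11.6% over all genes. STAG2 rose by 0.21 and STAG1 by 0.24 (limma adjusted p 0.0468 and 0.0491), alternative subunits that bind the cohesin ring. Their calls were lost under 13 and 11 of 19 settings. CTCF, at -0.26, and SMC3, at 0.13, were not called in set 3 (limma adjusted p 0.0687 and 0.214).

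Of 13 genes of mitochondrial tRNA processing and isoleucine breakdown, set 1 had 3 higher and 1 lower, close to the 30.3% over all genes. The lower one, TRMT10C, encodes the RNase P subunit that binds the HSD17B10 protein. It held 101.7 ± 5.61 TPM in controls and 81.8 ± 7.42 TPM with HUWE1 siRNA (SD, n = 4), a log2 fold change of -0.31 (limma adjusted p = 0.00432). ACADSB and BCAT2, enzymes of branched-chain amino acid breakdown, rose by 0.31 and 0.23 (limma adjusted p 0.00217 and 0.00207). In sets 2 and 3 the TRMT10C fold changes were also negative, -0.11 ± 0.118 and -0.14 ± 0.118 (SE, limma adjusted p 0.74 and 0.402). The controls of these sets spread from 84.0 to 129.8 TPM for TRMT10C. Whether its fold change differs between the sets was not tested. In set 3, 1 member rose, KIAA0391, an older symbol of PRORP, the nuclease subunit of the same enzyme (0.32, limma adjusted p = 0.0483, lost under 13 of 19 settings).

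FAM120A, the paralogue of FAM120C, was lower in sets 1 and 3. In the second table it held 69.2, 68.7, 70.5 and 66.5 TPM in controls, 67.5, 64.2, 68.0 and 67.7 TPM in set 2 and 46.2, 49.4, 48.7 and 49.6 TPM in set 3. All of set 3 lay below all of set 2 and of the controls. The log2 fold change was -0.50 ± 0.038 in set 3 (SE; limma adjusted p = 9.1e-05), -0.04 ± 0.038 in set 2 (limma adjusted p = 0.719) and -0.46 ± 0.038 for set 3 against set 2 (limma adjusted p = 2.4e-04). In set 1 it was -0.17 ± 0.033 (limma adjusted p = 0.00369). The calls in set 1, in set 3 and for set 3 against set 2 held under every setting tried. The other paralogue, FAM120B, was not called in any comparison, and RIBC2, the relative of RIBC1, was too low to test.

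Of 19 other lysine demethylase genes, set 1 had 3 higher and 3 lower (30.3% over all genes), with KDM5B, the relative of KDM5C, at 0.19 and RIOX2 at -0.19 (limma adjusted p 0.0052 and 0.00133), and set 3 had 1 higher (11.6% over all genes), JMJD1C at 0.17 (0.0421, lost under 12 of 19 settings). ARF exchange factors and ARF6 had 2 higher and 2 lower of 13 in set 1 (30.3% over all genes), with CYTH2 at 0.28 and PSD at -0.39, and 2 higher of 11 in set 3 (11.6% over all genes), with FBXO8 at 0.43 and CYTH1 at 0.17 (limma adjusted p 3.3e-04, 0.00196, 0.00594 and 0.0305; CYTH1 lost under 8 of 19 settings). HECT ligases other than HUWE1 had 4 higher and 2 lower of 26 in set 1, a smaller share than the 30.3% over all genes, with HACE1 at -0.30, TRIP12 at 0.14 and UBE3C at 0.12 (limma adjusted p 4.8e-04, 0.00974 and 0.0038). In set 3 there were 4 higher and 0 lower, beside 11.6% over all genes, with NEDD4L at 0.29, ITCH at 0.28 and TRIP12 at 0.16 (limma adjusted p 0.0114, 0.0139 and 0.0368). The TRIP12 call in set 3 was lost under 11 of 19 settings and the ITCH call under 2. In set 2 limma called 0 of the 86 tested members of all these lists, beside 0.0126% of all tested genes. An unadjusted p under 0.05 was seen for 4, beside 8.83% of all tested genes. List medians lay between -0.20 and 0.15 in every comparison, beside -0.01 to 0.01 over all tested genes.

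The genes whose levels tracked HUWE1 most closely over both tables were OAF, BIRC5, which encodes survivin, DCHS1, GABRB1 and the mitotic kinase gene PLK1. Likeness was the smaller of the Pearson correlations of log2(TPM + 1) over the 8 libraries of the first table and the 12 of the second, among 15295 genes, and was 0.92 for OAF and 0.89 for the other 4. These libraries fall into knockdown and control groups, so the values describe that split, with no test. OAF had fold changes of -0.32, -0.20 and -0.25 in sets 1, 2 and 3, and PLK1 of -0.14, -0.20 and -0.18. HSD17B10 had a correlation with HUWE1 of 0.99 over the 8 libraries and of 0.14 over the 12.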

How the data were processed

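RNA was measured in 20 libraries with a stranded Illumina mRNA kit, per the labels' protocols. The values that the authors deposited are TPM, in 2 tables, on hg38 per the submitters' processing notes. Aligner, counter and annotation were not given in the sources used here. Each library sums to 1000000, which leaves depth unknown, so counting intervals were not made. Gene body coordinates came from GENCODE 29, which held 41180 of the 45372 symbols, and so did the transcripts searched for shared stretches. Coordinates and sequences of microRNAs and promoter windows came from RefSeq GRCh38.p14.

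Genes that reached 1 TPM in 4 or more libraries were kept, and their log2(TPM + 1) values were fitted with limma 3.58.1 (R 4.3.3) with a variance trend, for set 1 on 8 libraries and for sets 2 and 3 in 1 model of 12. A call is a Benjamini-Hochberg adjusted p under 0.05 over all tested genes. Fold changes understate the change of low genes. Exact two-sided permutation tests used scipy 1.17.1. The procedure was tested on simulated data. The 8 genes and all lists were chosen with earlier results of these data known. Named are all 8, called genes within 1 Mb of HUWE1, up to 3 members per list by p, and the 5 genes most like HUWE1. Alternatives were a pseudocount of 0.1, no filter or a mean TPM of 5, other scalings and variance models, a replicate block, only the 2 groups compared, and leaving out libraries. The fit without NT replicates 1 and 4 was chosen after seeing the data. A marker is not reported here.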

Additional observations from a re-analysis of the deposited data

Results flagged for a closer look

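In 4 of the 40 groups of 4 values examined (8 genes in 5 groups), 1 library stood far from the other 3 relative to the range of its group, where chance gives about 1 in 20. SMC1A was at 226.4 TPM in HUWE1 siRNA set 2 replicate 1, with the nearest other library at 193.0 TPM. PHF8 was at 29.1 TPM in HUWE1 siRNA set 2 replicate 2, with the nearest at 31.5 TPM. KDM5C was at 115.9 TPM in HUWE1 siRNA set 1 replicate 2, with the nearest at 108.7 TPM. IQSEC2 was at 4.18 TPM in NT set 1 replicate 4, with the nearest at 4.50 TPM.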

How the results depend on the processing

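HUWE1 in sets 1, 2 and 3 and HSD17B10 and KDM5C in set 1 kept their call and direction under every setting tried. No called value changed sign. The number of calls among the 8 genes, 4 in set 1 and 1 in set 2, stayed within 1.5 times under every setting. In set 1 the genes behind that number changed. With quantile normalization FAM120C lost its call and SMC1A was called (0.07). Without NT replicate 1 FAM120C lost its call and RIBC1 was called (0.25). In set 3 the count fell from 2 to 1, as SMC1A lost its call, with median-of-ratios scaling, quantile normalization, no mitochondrial genes, no filter, no variance trend, the replicate block, only the 2 groups compared, and in 7 of the 8 fits that left out a library. Those 8 fits gave 1 to 3, with 3 without NT replicate 4, where RIBC1 was also called. Region genes called in set 1 were 4, and 2 to 5 in fits that left out a library. In set 3 they were 1, and 0 without the filter, with the block, with only the 2 groups compared and without NT replicates 1 and 4, and 0 to 3 in fits that left out a library. For set 3 against set 2 they were 0, and 0 to 1. Over all genes limma called 4863 in set 1. In set 2 it called 2, and 1 with median-of-ratios scaling, no variance trend, only the 2 groups compared or the block, 6 without mitochondrial genes, and 1 to 2 in fits that left out a library. In set 3 it called 1839, and 698 without the filter, 360 with only the 2 groups compared, 693 with the block, 3245 without NT replicates 1 and 4, and 163 to 5878 in fits that left out a library. For set 3 against set 2 it called 82, and 42, 335 and 17 without the filter, with only the 2 groups compared and with the block, and 20 to 68 in fits that left out a library. Why the counts moved was not tested.

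Same-numbered libraries were not treated as pairs in the main fit. The correlation of their deviations from group means was over 0.1 in 0 of 4 pairs in set 1 and 0 of 4 for NT and set 2. It was over 0.1 in 2 of 4 for NT and set 3 and 1 of 4 for sets 2 and 3. Its range was 0.00 to 0.05 in set 1 and -0.48 to 0.04 for NT and set 2. For NT and set 3 it was -0.03 to 0.41, and for sets 2 and 3 -0.25 to 0.11. Between libraries of different numbers, NT replicates 1 and 4 reached correlations of 0.42 and 0.45 with a set 2 library. The replicate block does not model such correlations. What lies behind the larger values of either sign was not tested. The replicate block also ended the FAM120C call in set 1 (-0.17). TPM carry no depth, so how precisely the low genes RIBC1, IQSEC2 and FAM120C were counted is unknown.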
